A study of Mus musculus with 6 samples.

Results

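The glucocorticoid-responsive genes examined here were 10 of the 32287 genes quantified, chosen by name: Fkbp5, Tsc22d3, Sgk1, Zbtb16, Errfi1, Mt1, Mt2, Txnip and Pdk4, whose transcription is known to respond to glucocorticoids, and Nr3c1, which encodes the glucocorticoid receptor itself. Each was matched by its symbol, and all 10 were found. They were measured in brain vascular cells from 6 male mice aged 12 months, 3 wild-type mice (WT, C57BL/6J) and 3 transgenic mice labelled AppArcSwe (ArcSwe), a model of Alzheimer's disease that carries human amyloid precursor protein with the Arctic and Swedish mutations. All 6 mice were untreated, lived under a 12 h light/dark cycle and gave 1 droplet library each, made from vascular fragments of the cerebrum of a single hemisphere that had been captured with CD31-coated beads, digested to single cells and sequenced from the 3′ end of the transcripts. The hour of the day at which each mouse was killed, its corticosterone level, and the promoter that drives the transgene are not given in the sources used here, so the state of the hormone at the time of sampling is unknown for every mouse. The mice are separate animals, and each p-value between the genotypes within a class therefore measures the spread between animals. A p-value that sets classes or zones of the same mice against each other measures how the difference within a mouse varies from mouse to mouse.

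Glucocorticoids, corticosterone in the mouse, enter cells and bind the glucocorticoid receptor, which waits in the cytoplasm in a chaperone complex with Hsp90 and immunophilins and then moves to the nucleus, where it binds glucocorticoid response elements near its target genes. Corticosterone rises and falls each day with a peak near the start of the active phase, and rises within minutes of stress. Brain endothelial cells carry the receptor, and glucocorticoids are known to tighten the blood-brain barrier and to dampen inflammatory gene programmes in microglia. The targets differ in what they do. Fkbp5 encodes an immunophilin that lowers the affinity of the receptor for its hormone, and Tsc22d3 encodes GILZ, a repressor of inflammatory transcription. Sgk1 is a kinase that regulates ion channels, Errfi1 (Mig6) an inhibitor of the epidermal growth factor receptor, and Zbtb16 (PLZF) a transcription factor. Mt1 and Mt2 are metallothioneins, which bind zinc and copper and are also induced by metal through the factor Mtf1. Txnip binds thioredoxin and limits glucose uptake, and Pdk4 inhibits pyruvate dehydrogenase, so both are also known as genes of fuel use.

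In the GENCODE vM21 annotation of GRCm38, all 10 are protein-coding genes and lie on 9 chromosomes. Only the metallothioneins are neighbours, with Mt2 at chr8:94172664-94173568 and Mt1 at chr8:94179082-94180327, both on the plus strand. Sgk1 spans chr10:21882184-21999903 on the plus strand, Fkbp5 chr17:28399094-28517527 on the minus strand and Zbtb16 chr9:48654297-48836222 on the minus strand. Tsc22d3 lies on the minus strand at chrX:140539528-140600659, Errfi1 on the plus strand at chr4:150853919-150868892, Txnip on the plus strand at chr3:96557957-96561883 and Pdk4 on the minus strand at chr6:5483351-5496309. The UMIs of a gene come from its 3′ end, so they do not show which start site was used.

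The promoters of 3 members are shown because the response letters of the receptor and of the metal factor lie in them. RefSeq promoters of 300 bases (GRCm38.p6, 250 bases before the start of a transcript and 50 after) were found for 8 of the 10 members, 16 promoters in all. The glucocorticoid response element was searched on both strands as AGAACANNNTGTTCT, a single arm of it as AGAACA, the core of the metal response element as TGCACNC or TGCGCNC, and the E-box bound by the clock factors as CACGTG. The 15 letters of the response element were found in 3 of 32851 mouse promoters, 0.00913%, and 1 of the 3 was a promoter of Sgk1. In the Sgk1 promoter (chr10:21993640-21993939, plus strand) the match begins at base 62 of the printed sequence, counted from 1 at its 5′ end, which is 189 bases before the transcript start. The metal response core was found in 25.7% of all promoters, but 3 or more copies stood in 1.97% and 4 or more in 0.517%. The Mt2 promoter (chr8:94172368-94172667, plus strand) has 4 copies and the Mt1 promoter (chr8:94178839-94179138, plus strand) has 3. Capitals mark the response element in Sgk1 and the metal response cores, on either strand, in Mt2 and Mt1:
Sgk1: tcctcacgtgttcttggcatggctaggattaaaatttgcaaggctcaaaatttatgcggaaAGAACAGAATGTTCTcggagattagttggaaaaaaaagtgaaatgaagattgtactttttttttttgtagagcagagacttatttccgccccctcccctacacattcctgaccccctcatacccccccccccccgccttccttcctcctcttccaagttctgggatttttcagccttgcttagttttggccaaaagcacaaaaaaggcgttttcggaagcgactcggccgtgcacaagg
Mt2: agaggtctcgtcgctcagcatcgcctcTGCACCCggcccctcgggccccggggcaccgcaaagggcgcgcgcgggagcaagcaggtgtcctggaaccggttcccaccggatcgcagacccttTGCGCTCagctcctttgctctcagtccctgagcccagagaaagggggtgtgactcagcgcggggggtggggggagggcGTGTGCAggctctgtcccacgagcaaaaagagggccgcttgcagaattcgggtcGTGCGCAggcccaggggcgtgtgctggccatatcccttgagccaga
Mt1: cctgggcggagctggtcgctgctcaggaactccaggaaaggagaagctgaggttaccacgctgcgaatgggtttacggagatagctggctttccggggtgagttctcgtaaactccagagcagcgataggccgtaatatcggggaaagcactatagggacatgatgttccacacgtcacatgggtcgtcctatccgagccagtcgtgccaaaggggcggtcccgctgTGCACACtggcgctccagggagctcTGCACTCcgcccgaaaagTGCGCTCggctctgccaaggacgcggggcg
Single arms, which the response element contains and which are in 19.0% of all promoters, were also found in 2 other Sgk1 promoters and in 1 of Tsc22d3, single metal cores in 1 promoter of Txnip and 1 other of Sgk1, and E-boxes, in 7.15% of all promoters, in 1 promoter each of Sgk1 and Fkbp5. A match is a string of letters and not a measured binding site, and most glucocorticoid enhancers are known to lie outside such windows.

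Of 49059 deposited cells, 44112 were kept, 2379 to 13389 per mouse with a median of 2922 to 5542 UMIs per cell, and their raw UMIs were summed per mouse and cell class. The sums covered 24129 barrier endothelial cells (arterial 4817, capillary 15505, venous 3137), 4111 mural cells (605 pericytes and 3506 smooth muscle cells), 6733 microglia, and, in smaller number, 838 fenestrated endothelial cells, 706 B cells and 296 T and NK cells. Each class carried its own defining markers, with the summed endothelial markers at 16483 to 18491 CPM (UMIs of a gene per 1000000 UMIs of the sum) in endothelial cells and 490.0 to 2183 CPM in microglia. Replicate 3 of each genotype stood apart. In WT replicate 3 and ArcSwe replicate 3, 22.3% and 27.6% of endothelial cells held a UMI of Cx3cr1 or Aif1 and were left out, against 8.09 to 16.2% in the other 4 mice. Microglia were divided by clusters whose cells carry few UMIs of ribosomal protein genes (low-ribosomal clusters). These made up 26.2% and 31.9% of microglia in WT replicates 1 and 2, 94.4% in WT replicate 3, and 68.0%, 92.8% and 77.2% in the ArcSwe mice. The study removed a microglial cluster low in ribosomal and high in mitochondrial genes. Here the low-ribosomal clusters were kept in the microglia class, also in its main fits. Their medians were 1179 and 1175 UMIs per cell, against 3711 to 6495 in the other microglial clusters. ArcSwe replicate 2 had the smallest sums, by UMIs, of every class but the fenestrated cells, among them 222 microglia, 28 pericytes and 22 T and NK cells. Of 48775 distinct barcodes, 283 occurred in more than 1 library, 235 of them among kept cells.

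The members differed in the cell class in which they were highest, and the receptor gene and its targets ranked the classes differently. Among the 9 classes, Nr3c1 was highest in T and NK cells at 577 ± 175 CPM (SD, n = 6), then in venous endothelial cells at 357 ± 28.8 CPM, above the other endothelial zones in 6 of 6 mice, and lowest in smooth muscle cells at 105 ± 6.91 CPM. Fkbp5 was highest in microglia (64.9 ± 31.9 CPM), fenestrated endothelial cells (57.5 ± 16.4 CPM) and T and NK cells (51.3 ± 27.7 CPM), 3 classes whose order changed from mouse to mouse. Tsc22d3 was highest in B cells at 508 ± 139.7 CPM, above fenestrated endothelial cells in 6 of 6 mice. Sgk1 was highest in microglia and fenestrated endothelial cells, which did not differ beyond their spread, and lowest in smooth muscle cells. The metallothioneins led in venous and capillary endothelial cells, Errfi1 and Pdk4 in smooth muscle cells, Txnip in fenestrated endothelial cells and microglia, and Zbtb16 in T and NK cells and venous endothelial cells.

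**Figure D1:**
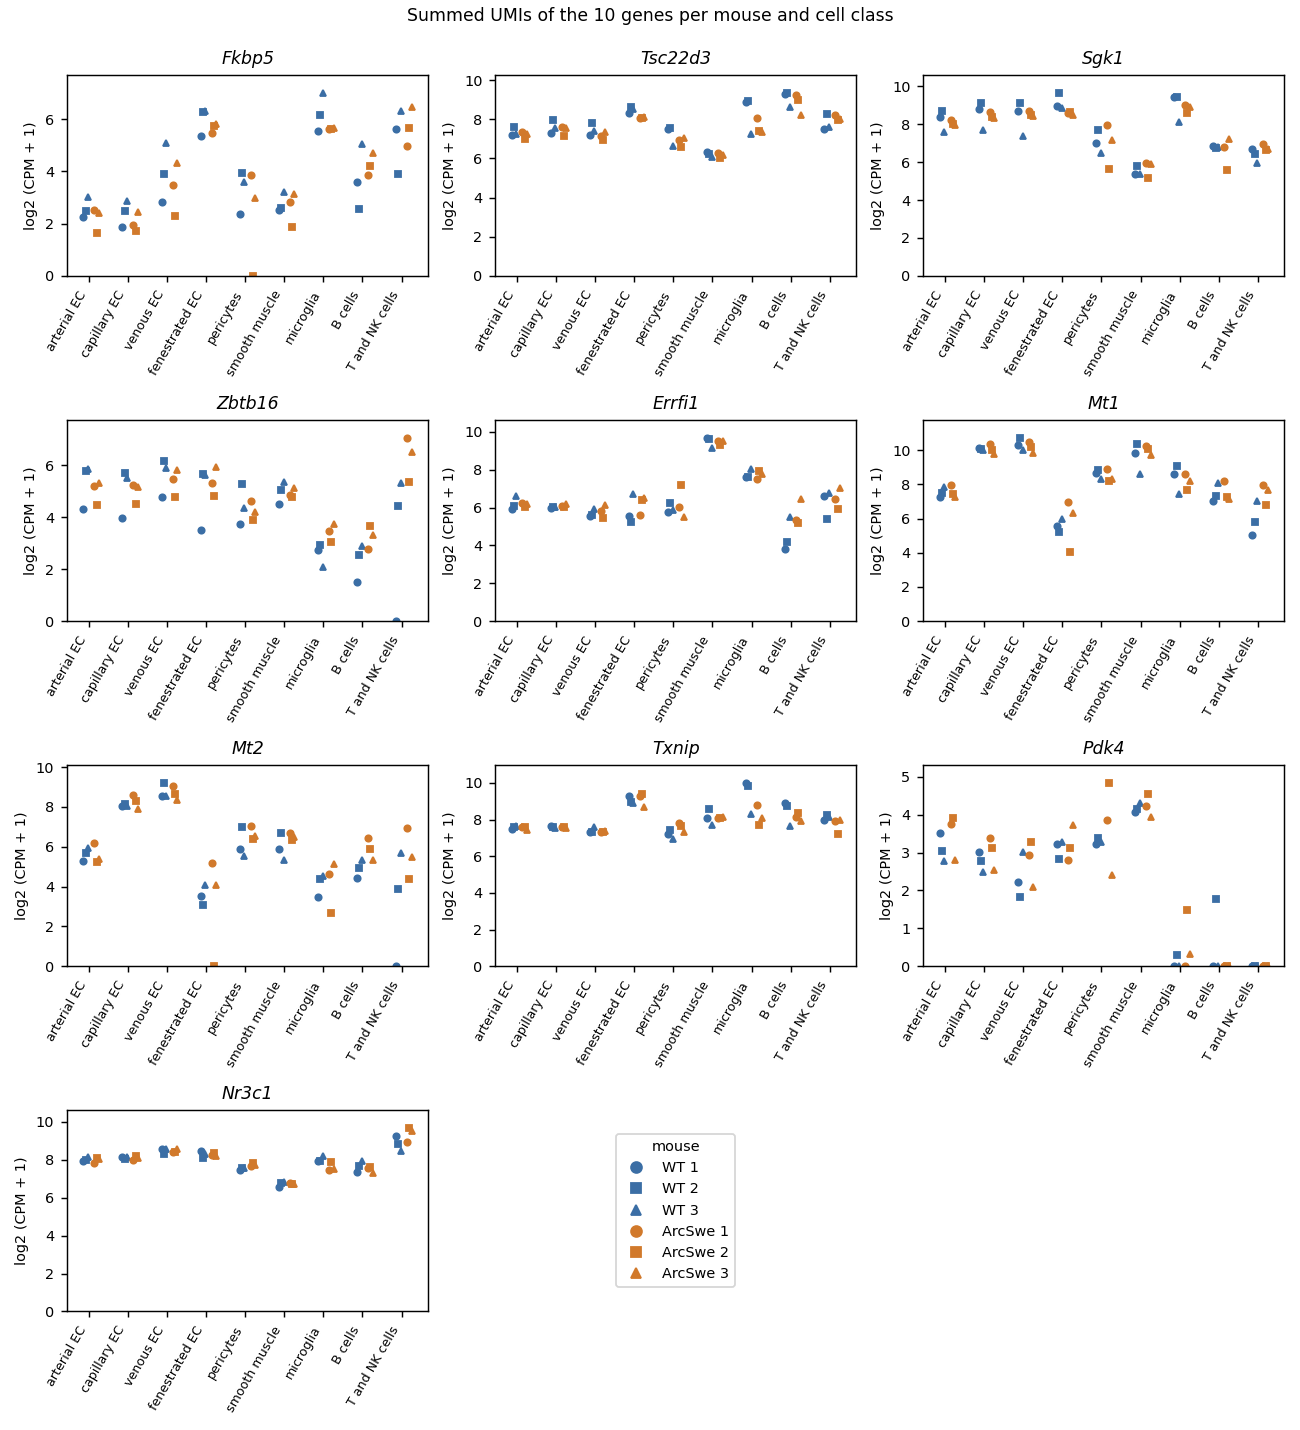
Level of each member as log2(CPM + 1) in 9 cell classes (EC, endothelial cells), with 1 point per mouse, blue for the 3 WT and orange for the 3 ArcSwe mice. Mt1 and Mt2 fall sharply from capillary to arterial endothelial cells, Errfi1 stands highest in smooth muscle cells, and Fkbp5 lies near the bottom of its range in arterial and capillary endothelial cells.

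Along the vessel, the metallothioneins showed the steepest difference of any member between arterial and capillary endothelial cells. Mt1 was at 155, 178 and 228 CPM in the arterial cells of the WT mice and 246, 171 and 155 CPM in those of the ArcSwe mice. In capillary cells it was at 1114, 1098 and 1037 CPM (WT) and 1338, 1054 and 891 CPM (ArcSwe). Every capillary value was thus above every arterial one, with no overlap. Mt1 was 5.65-fold lower in arterial than in capillary cells (log2 fold change -2.50 ± 0.08, SE, adjusted p = 7.64e-19), and Mt2, its neighbour on the chromosome, was 5.65-fold lower (-2.50 ± 0.09, adjusted p = 1.87e-18). Unless another tool is named, adjusted p-values are from the quasi-likelihood test of edgeR, adjusted over all genes tested by Benjamini-Hochberg, with mouse as a block between zones and classes and genotype as the only term between WT and ArcSwe mice.

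Mt2 was at 37.8, 50.8 and 59.6 CPM (WT) and 71.4, 37.1 and 40.8 CPM (ArcSwe) in arterial cells, 259.8, 287 and 263 CPM and 389, 312 and 236 CPM in capillary cells, and 375, 584 and 374 CPM and 528, 397 and 319.7 CPM in venous cells. In each mouse it was highest in the venous cells. Mt2 was 1.52-fold higher in venous than in capillary cells (0.61 ± 0.07, adjusted p = 1.48e-07) and Mt1 1.18-fold (0.24 ± 0.08, adjusted p = 0.0175). Without WT replicate 2, in which venous Mt1 was highest at 1685 CPM, the Mt1 difference was 0.15 and no longer passed (adjusted p = 0.0914). Nor did it pass with DESeq2 on all 6 mice (0.25, adjusted p = 0.115). The ratio of Mt1 to Mt2 UMIs had a median over mice of 3.81 in arterial and 3.80 in capillary cells and of 2.85 in venous cells. Among the other genes of metal handling fixed as a list, the zinc importer Slc39a14 went the other way and was higher in arterial than capillary cells (3.17 ± 0.23, adjusted p = 9.52e-12), the metal sensor Mtf1 was slightly lower (-0.17 ± 0.07, adjusted p = 0.0457), and the zinc exporter Slc30a1 had a difference of -0.04 ± 0.04 (adjusted p = 0.459).

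Fkbp5 was higher in venous than in capillary cells of every mouse. Its venous level was 6.08, 13.8 and 32.9 CPM in the WT mice and 10.3, 3.91 and 19.1 CPM in the ArcSwe mice. Its capillary level was 2.68, 4.64 and 6.40 CPM and 2.84, 2.27 and 4.45 CPM. The ranges of the 2 zones overlapped across mice, although within each mouse the venous level was the higher. Fkbp5 was 3.76-fold higher in venous cells (1.91 ± 0.16, adjusted p = 4.87e-10), on 9 to 112 UMIs per venous sum. The markers of the other classes rich in Fkbp5 were summed in the venous cells: the 4 T and NK cell markers came to 0 to 2.06 CPM, the 4 fenestrated markers to 2.65 to 7.29 CPM, against 4303 to 5834 CPM in fenestrated cells, and the microglial markers to 130 to 401 CPM in venous and 149 to 679 CPM in capillary cells.

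The receptor gene Nr3c1 was also highest in the venous zone, at 385, 318 and 382 CPM (WT) and 338, 339.8 and 380.3 CPM (ArcSwe), against 279, 266 and 286 CPM and 255, 299 and 276 CPM in capillary cells. The lowest venous value lay above the highest capillary one. The difference was 1.34-fold (0.43 ± 0.04, adjusted p = 1.97e-09), while arterial and capillary cells differed by -0.08 ± 0.04 (adjusted p = 0.109). Zbtb16 was 1.44-fold higher in venous than in capillary cells (0.53 ± 0.07, adjusted p = 1.12e-06), with venous levels of 26.2, 71.1 and 59.4 CPM (WT) and 43.7, 26.5 and 55.3 CPM (ArcSwe) and the venous value above the capillary one in all 6 mice.

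The remaining members differed less among the zones. Sgk1 was lower in arterial than in capillary cells (-0.33 ± 0.05, adjusted p = 1.52e-05) and did not pass between venous and capillary cells (0.04 ± 0.05, 95% interval -0.07 to 0.16). Tsc22d3 was lower than in capillary cells at both ends, by -0.24 ± 0.04 in arterial cells (adjusted p = 4.61e-05) and -0.17 ± 0.04 in venous cells (adjusted p = 0.00321). Pdk4 was higher in arterial cells (0.47 ± 0.15, adjusted p = 0.00966), and Txnip was lower in venous cells (-0.18 ± 0.04, adjusted p = 0.00267) with an arterial difference of -0.02 ± 0.04. With WT mice only, arterial Pdk4 (adjusted p = 0.205), venous Txnip (adjusted p = 0.151) and venous Tsc22d3 (adjusted p = 0.324) did not pass. Without mouse as a block, arterial Pdk4, Sgk1 and Tsc22d3 and venous Tsc22d3 did not pass (adjusted p = 0.186 to 0.530). Arterial Errfi1 (0.17 ± 0.07, adjusted p = 0.0375) and Zbtb16 (0.19 ± 0.07, adjusted p = 0.0255) passed, but both calls were lost without WT replicate 3 (adjusted p = 0.261 and 0.128), the Errfi1 call also without ArcSwe replicate 1 (adjusted p = 0.0885) and the Zbtb16 call without WT replicate 1 (adjusted p = 0.0603). DESeq2 called neither (adjusted p = 0.104 and 0.0658). Venous Errfi1 (-0.23 ± 0.08, adjusted p = 0.0198) was lost without any 1 of 4 mice, WT replicates 1 and 2 and ArcSwe replicates 1 and 2 (adjusted p = 0.0505 to 0.0909). Venous Pdk4, at -0.30 ± 0.18 (adjusted p = 0.231), passed only without WT replicate 3 (-0.49, adjusted p = 0.0376).

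In counts, 7 of 10 members differed between arterial and capillary cells (3 higher and 4 lower), beside 47.3% of all 11662 genes tested. Between venous and capillary cells 8 of 10 differed (5 higher and 3 lower), beside 31.0% of all genes, and between venous and arterial cells 9 of 10 (6 higher and 3 lower), beside 46.2%, with Tsc22d3 as the exception (0.06 ± 0.05, adjusted p = 0.303). The median difference of the members was -0.05, 0.14 and 0.35 on the log2 scale in these comparisons, against -0.02, -0.01 and 0.01 for all genes. Without mouse as a block the members that passed numbered 2, 4 and 6. Calls over all genes fell too, from 5520 to 3285 in arterial over capillary cells and from 3618 to 1757 in venous over capillary cells.

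**Figure D2:**
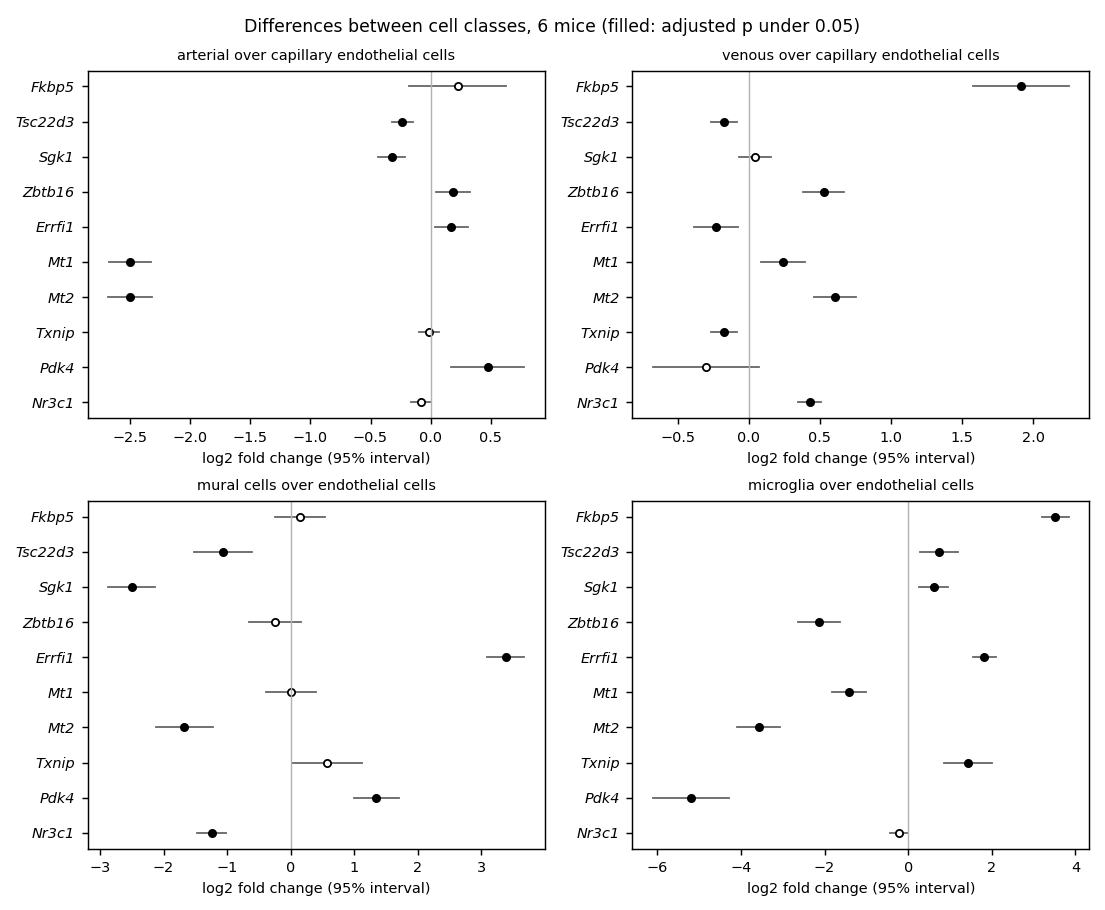
Log2 fold change of each member between zones and cell classes, from fits with mouse as a block, with lines for the 95% interval and filled points for adjusted p under 0.05. The Pdk4 value in microglia rests on 3 UMIs. Mt1 and Mt2 stand far to the left in arterial over capillary cells, Fkbp5 far to the right in venous over capillary cells and in microglia over endothelial cells, and Errfi1 far to the right in mural over endothelial cells.

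The members split in mural cells, the contractile and pericyte layer around the endothelium. Errfi1 was at 762, 725 and 515 CPM (WT) and 676, 596 and 618 CPM (ArcSwe) in mural cells, and at 59.5, 61.9 and 74.2 CPM and 65.3, 59.9 and 70.6 CPM in endothelial cells. Every mural value was above every endothelial one, and the difference was 10.4-fold (3.38 ± 0.14, adjusted p = 3.13e-12). Pdk4 was 2.54-fold higher in mural cells, at 12.6 to 22.8 CPM over the 6 mice against 4.97 to 9.50 CPM (1.35 ± 0.16, adjusted p = 2.29e-06).

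Sgk1, Mt2, Nr3c1 and Tsc22d3 were lower in mural than in endothelial cells. Sgk1 was at 46.8, 66.6 and 45.2 CPM (WT) and 76.6, 35.5 and 73.6 CPM (ArcSwe) in mural cells and 414, 516 and 190.3 CPM and 372, 316 and 304 CPM in endothelial cells. The groups did not overlap and the difference was 5.66-fold (-2.50 ± 0.17, adjusted p = 2.63e-09). Mt2 differed by -1.68 ± 0.21 (adjusted p = 3.31e-06), Nr3c1 by -1.25 ± 0.11 (adjusted p = 2.87e-08) and Tsc22d3 by -1.06 ± 0.22 (adjusted p = 0.00042). Fkbp5 (0.15 ± 0.18), Zbtb16 (-0.24 ± 0.19) and Mt1 (0.01 ± 0.19, 95% interval -0.39 to 0.40) did not pass, so that Mt1 and Mt2 parted here. The ratio of Mt1 to Mt2 UMIs had a median of 12.3 in smooth muscle cells and 3.63 in pericytes.

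Txnip was at 263, 363 and 198 CPM (WT) and 271, 267 and 261 CPM (ArcSwe) in mural cells and did not pass against endothelial cells (0.57 ± 0.26, adjusted p = 0.0647). It passed with the size factors of DESeq2 within edgeR (0.70, adjusted p = 0.0201), with DESeq2 itself (adjusted p = 0.0149) and without WT replicate 3 (0.74, adjusted p = 0.0438). The change of scaling moved the median difference of all genes from -0.10 to 0.03, a shift of 0.12. In all, 6 of 10 members differed between mural and endothelial cells (2 higher and 4 lower), beside 64.6% of all 12564 genes, with a median of -0.12 for the members and -0.10 for all genes.

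Within the mural cells, smooth muscle and pericytes differed in 8 of 9 members tested (5 higher and 3 lower in smooth muscle), beside 47.4% of all 9581 genes, with a median of 0.97 against -0.0032 for all genes. Fkbp5, at 0 to 8 UMIs per pericyte sum, was not tested. Errfi1 was 13.7-fold higher in smooth muscle (3.78 ± 0.16, adjusted p = 1.28e-15), with 571 to 820.4 CPM in smooth muscle and 44.7 to 144 CPM in pericytes. Mt1 (1.55 ± 0.14), Pdk4 (1.20 ± 0.31), Txnip (1.03 ± 0.11) and Zbtb16 (0.97 ± 0.22) were also higher, Sgk1 (-1.23 ± 0.14), Nr3c1 (-0.61 ± 0.10) and Tsc22d3 (-0.58 ± 0.12) lower, and Mt2 stood at 0.13 ± 0.12 (adjusted p = 0.398). The pericyte sums held endothelial RNA, with the 8 endothelial markers at a median of 28.4 to 37.9% of their endothelial level, against 7.91 to 10.6% in mural cells as a whole. Sgk1 stood at 15.2 to 65.7% of its endothelial level in the pericytes of the 6 mice, Mt1 at 33.3 to 46.6% and Mt2 at 21.1 to 46.5%. The endothelial markers there ranged from 18.3 to 52.8% over genes and mice, and both metallothioneins lay inside that range. The part of endothelial RNA in the pericyte levels of Mt1 and Mt2, and in their ratio, was not tested. The members that were lower in smooth muscle than in pericytes, Sgk1, Nr3c1 and Tsc22d3, are members that endothelial cells carry at a higher level than mural cells, and the part of this RNA in their difference was not tested.

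Microglia held more Fkbp5 than any barrier endothelial zone. Fkbp5 was at 46.1, 69.6 and 128 CPM (WT) and 48.6, 48.6 and 49.0 CPM (ArcSwe) in microglia and 3.55, 6.02 and 11.9 CPM and 5.08, 2.66 and 6.55 CPM in endothelial cells, with no overlap. It was 11.5-fold higher in microglia (3.52 ± 0.15, adjusted p = 8.58e-12). Its endothelial level was 5.46 to 13.4% of its microglial level, and in each mouse this share was above the highest of the 7 microglial markers in endothelial cells, 1.98, 2.49 and 4.90% in the WT mice and 4.30, 4.19 and 13.1% in the ArcSwe mice, although in ArcSwe replicate 3 the margin was small.

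Errfi1 (1.82 ± 0.13, adjusted p = 2.05e-09), Txnip (1.43 ± 0.27, adjusted p = 0.00015), Tsc22d3 (0.73 ± 0.22, adjusted p = 0.00583) and Sgk1 (0.61 ± 0.16, adjusted p = 0.00266) were higher in microglia too. Sgk1 was at 685, 686 and 275 CPM (WT) and 509, 384 and 472 CPM (ArcSwe), and in each mouse it was above its endothelial level. Nr3c1 had a difference of -0.23 ± 0.10 (adjusted p = 0.0585), which passed with DESeq2, with no filter on low counts, and without the low-ribosomal clusters, an alternative on 5 mice chosen after the data were seen.

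Both metallothioneins, Zbtb16 and Pdk4 were lower in microglia. Mt1 was at 385, 534 and 169 CPM (WT) and 394, 204 and 289 CPM (ArcSwe), 2.66-fold below endothelial cells (-1.41 ± 0.19, adjusted p = 4.66e-06). Mt2 was at 5.40 to 33.9 CPM (-3.58 ± 0.24, adjusted p = 1.26e-09), which is 2.03 to 17.3% of its endothelial level. This lies within the range of the 8 endothelial markers in microglia, 1.26 to 18.1%, of which Slc2a1 set the upper end. The part of endothelial RNA in the Mt2 level was not tested. Mt1 at 21.8 to 54.2% of its endothelial level was above the marker range, and the median ratio of Mt1 to Mt2 UMIs in microglia was 21.5. Zbtb16 was at 3.26 to 12.2 CPM (-2.14 ± 0.24, adjusted p = 4.81e-07), and its share of the endothelial level, 6.33% in WT replicate 3 and 12.2 to 31.7% in the other 5 mice, was above the highest endothelial marker in those 5 and inside the marker range in WT replicate 3. Pdk4 gave 3 UMIs in all 6733 microglia, against 94 to 219 UMIs in each endothelial sum.

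Of the 10 members, 9 differed between microglia and endothelial cells (5 higher and 4 lower), beside 77.7% of all 12564 genes, with a median of 0.19 for the members and -0.11 for all genes. Between microglia and mural cells all 10 differed (5 higher and 5 lower), beside 78.8% of all genes, with medians of -0.28 and -0.05. Nr3c1 was higher in microglia than in mural cells (1.02 ± 0.11, adjusted p = 2.42e-07), as were Fkbp5 (3.37 ± 0.17) and Sgk1 (3.11 ± 0.18).

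The mice differed severalfold in some members and hardly at all in others. In endothelial cells the highest of the 6 mice exceeded the lowest by 4.50-fold for Fkbp5, 3.05-fold for Zbtb16 and 2.71-fold for Sgk1, but by 1.25-fold for Errfi1, 1.14-fold for Nr3c1 and 1.05-fold for Txnip. Within a genotype the range was 3.37-fold among the WT and 2.47-fold among the ArcSwe mice for Fkbp5, 3.05-fold and 1.71-fold for Zbtb16, and 2.71-fold and 1.22-fold for Sgk1. Endothelial Fkbp5 was at 3.55, 6.02 and 11.9 CPM in the WT mice and 5.08, 2.66 and 6.55 CPM in the ArcSwe mice, highest in WT replicate 3 and lowest in ArcSwe replicate 2. Sgk1 was lowest in WT replicate 3 at 190.3 CPM, where Fkbp5 was highest. Immediate early genes, which enzyme digestion of tissue is known to switch on, were lowest there too: in endothelial cells 15 of a list of 16, among them Fos, Jun and Atf3, had their lowest level in WT replicate 3, and the 16 summed to 14221 CPM in that mouse against 25945 to 33084 CPM in the other 5. Their part in the low Sgk1 was not tested. Zbtb16, at 17.8, 54.4 and 51.5 CPM (WT) and 38.1, 22.7 and 38.9 CPM (ArcSwe), was lowest in WT replicate 1 and highest in WT replicate 2.

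Whether a mouse that was high in one class was high in another was asked with 28 relations of log2(CPM + 1) over the 6 mice. By the exact two-sided permutation test 5 of the 28 had an unadjusted p under 0.05, and 0 passed after Benjamini-Hochberg adjustment, the lowest adjusted p being 0.0583. For Sgk1 in endothelial cells and microglia Pearson's r was 0.95 (exact permutation p = 0.00417) and Spearman's rho 0.94 (p = 0.0167), with r = 0.86 after the 2 outermost mice were left out. For Zbtb16 in endothelial and mural cells r was 0.94 (exact permutation p = 0.00417) and rho 0.94 (p = 0.0167), with r = 0.81 without the 2 mice. For Fkbp5 in endothelial cells r was 0.88 with mural cells (exact permutation p = 0.0222, r = 0.84 without 2 mice) and 0.84 with microglia (p = 0.0375), but the last fell to 0.50 without them. Errfi1 went the other way between mural cells and microglia, with r = -0.89 (exact permutation p = 0.0181) and r = -0.81 without 2 mice. With each genotype's mean taken out, r was 0.95 for Sgk1 in endothelial cells and microglia, 0.94 for Zbtb16 in endothelial and mural cells, and 0.88 and 0.82 for Fkbp5. For Errfi1 in mural cells and microglia it was -0.92. The classes of a mouse share a library and its free RNA.

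**Figure D3:**
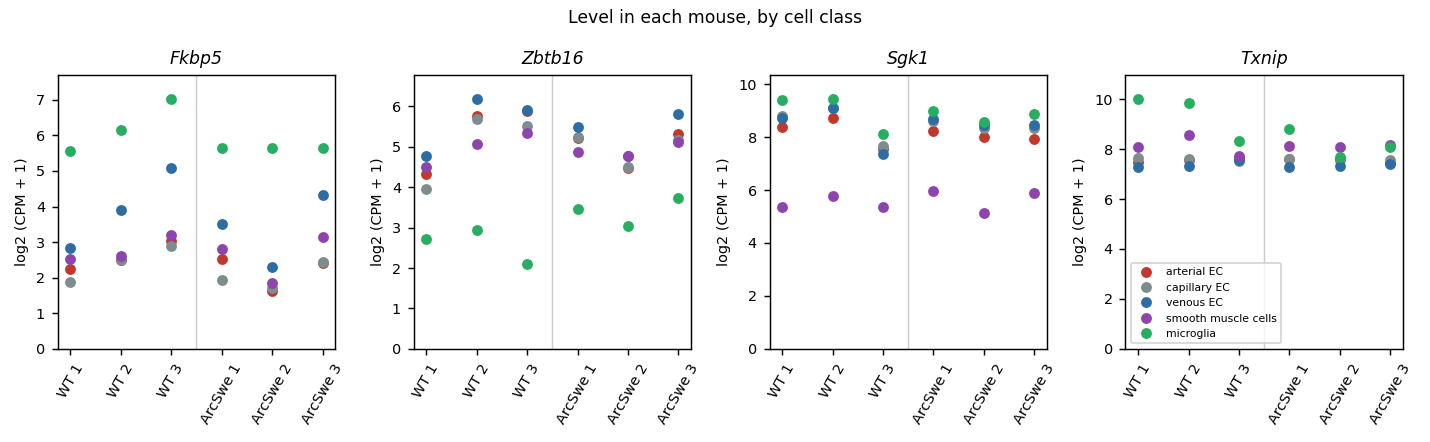
Level of Fkbp5, Zbtb16, Sgk1 and Txnip as log2(CPM + 1) in each of the 6 mice, with 1 point per cell class (EC, endothelial cells). Fkbp5 is highest in WT replicate 3 in each class shown, Zbtb16 is lowest in WT replicate 1 in the endothelial zones and smooth muscle, and endothelial Txnip runs flat while microglial Txnip stands highest in WT replicates 1 and 2.

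WT and ArcSwe mice were compared next, to ask whether the transgene went with a shift of these genes. In endothelial cells 0 of 10 members passed, beside 0% of all 13479 genes (598 genes at an unadjusted p under 0.05 by edgeR, and 13 calls by DESeq2), and the lowest unadjusted p of a member was 0.204. The estimates for ArcSwe over WT ran from -0.51 ± 0.45 for Fkbp5 to 0.38 ± 0.27 for Pdk4, with a median of 0.00027 for the members and -0.0018 for all genes. Without WT replicate 3, the mouse with the highest Fkbp5, the Fkbp5 estimate turned to 0.022 (adjusted p = 0.991), and without WT replicate 2, with the highest Sgk1 and Zbtb16, those of Sgk1 and Zbtb16 turned to 0.17 and 0.022. The width of the intervals differed between members: Txnip stood at -0.01 ± 0.08 (95% interval -0.19 to 0.17) and Nr3c1 at 0.01 ± 0.09 (-0.19 to 0.21), whereas Fkbp5 had an interval of -1.55 to 0.52, Zbtb16 of -1.18 to 0.64 and Sgk1 of -0.94 to 0.61.

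Endothelial Txnip, at 186, 187 and 190.4 CPM in the WT and 186, 182 and 181 CPM in the ArcSwe mice, was the 1 member of 10 whose groups did not overlap, with a gap of less than 1 CPM between the lowest WT and the highest ArcSwe value. Beside it, 10.9% of all genes tested did not overlap. Within the zones 0 of 10 members passed in arterial cells (0% of all 11362 genes, 500 at an unadjusted p under 0.05 by edgeR, 15 calls by DESeq2), 0 of 10 in capillary cells (0% of 12474 genes, 552 and 12) and 0 of 10 in venous cells (0% of 10599 genes, 397 and 1). The venous estimates had the widest span, from -0.59 for Fkbp5 to 0.47 for Pdk4.

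In mural cells 0 of 10 members passed, beside 0% of all 11167 genes (313 at an unadjusted p under 0.05 by edgeR, 0 calls by DESeq2). Mt2 had the largest estimate (0.46 ± 0.31, 95% interval -0.24 to 1.16), with 57.8, 105 and 40.5 CPM in the WT and 104, 79.3 and 88.9 CPM in the ArcSwe mice, which overlapped. The groups of 0 of 10 members did not overlap, beside 8.36% of all genes, and the median was 0.02 against 0.01. In smooth muscle cells 0 of 10 passed in edgeR (0% of 10866 genes, 331 at an unadjusted p under 0.05) and in pericytes 0 of the 7 members tested (0% of 5340 genes, 186), with 0 calls by DESeq2 in both.

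**Figure D4:**
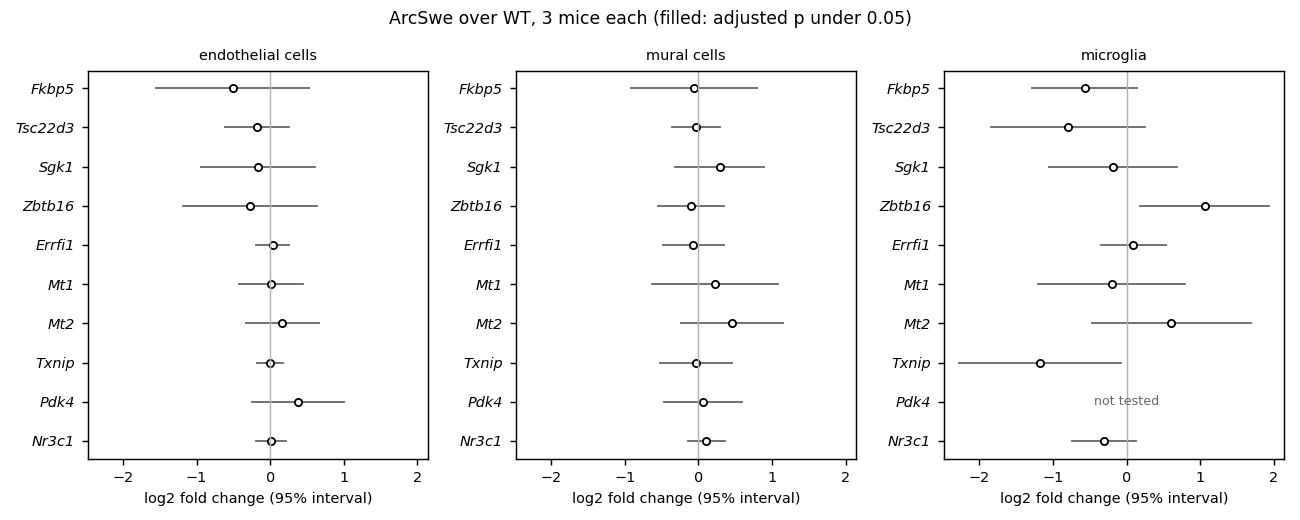
Log2 fold change of ArcSwe over WT for each member in endothelial cells, mural cells and microglia, with lines for the 95% interval and open points for an adjusted p of 0.05 or more. Each endothelial and mural interval crosses 0, and in microglia the intervals of Txnip (below 0) and Zbtb16 (above 0) do not, although neither has an adjusted p under 0.05.

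In microglia 0 of the 9 members tested passed, beside 0.163% of all 11029 genes (18 genes by edgeR, 1115 at an unadjusted p under 0.05, and 168 calls by DESeq2, no member among them), with a median of -0.20 for the members and -0.04 for all genes. Pdk4 was not tested there. Txnip was at 1015, 909 and 316 CPM in the WT mice and 451, 207 and 271 CPM in the ArcSwe mice, so WT replicates 1 and 2 were highest while WT replicate 3 lay among the ArcSwe mice. The estimate was -1.17 ± 0.49 (unadjusted p = 0.0392, adjusted p = 0.465). Tsc22d3 was also highest in WT replicates 1 and 2, while WT replicate 3 lay below all 3 ArcSwe mice, with 473, 494 and 149 CPM (WT) and 271, 168 and 165 CPM (ArcSwe) and an estimate of -0.80 ± 0.46 (adjusted p = 0.595).

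Without WT replicate 3, Txnip (-1.56, adjusted p = 0.0418) and Tsc22d3 (-1.20, adjusted p = 0.0465) both passed as lower in ArcSwe, 2 of 9 members beside 2.59% of all 11439 genes tested in that fit. Without both replicates 3, an alternative chosen after the data were seen, they did not (-1.45, adjusted p = 0.131, and -1.05, adjusted p = 0.143), nor did they without the low-ribosomal clusters (-0.96, adjusted p = 0.409, and -0.89, adjusted p = 0.474), a fit that leaves out ArcSwe replicate 2, which had 16 such cells. WT replicate 3 is the mouse in which 94.4% of microglia belonged to the low-ribosomal clusters. In microglia outside those clusters Txnip was at 1066, 973 and 419 CPM (WT) and 539, 245 and 192 CPM (ArcSwe), and within them at 489.7, 413 and 291 CPM and 246, 195 and 359 CPM. The value of ArcSwe replicate 2 outside them rests on 16 cells. In both sets the groups overlapped, and in WT replicates 1 and 2 Txnip was higher outside the clusters than within them. The 2 mice with the lowest share of these clusters were the 2 with the highest Txnip and Tsc22d3. They were also highest in the immediate early genes, the 16 of which summed to 48270, 48846 and 13525 CPM in WT and 34301, 23750 and 23542 CPM in ArcSwe microglia. The part of that share and of that response in the difference was not tested.

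**Figure D5:**
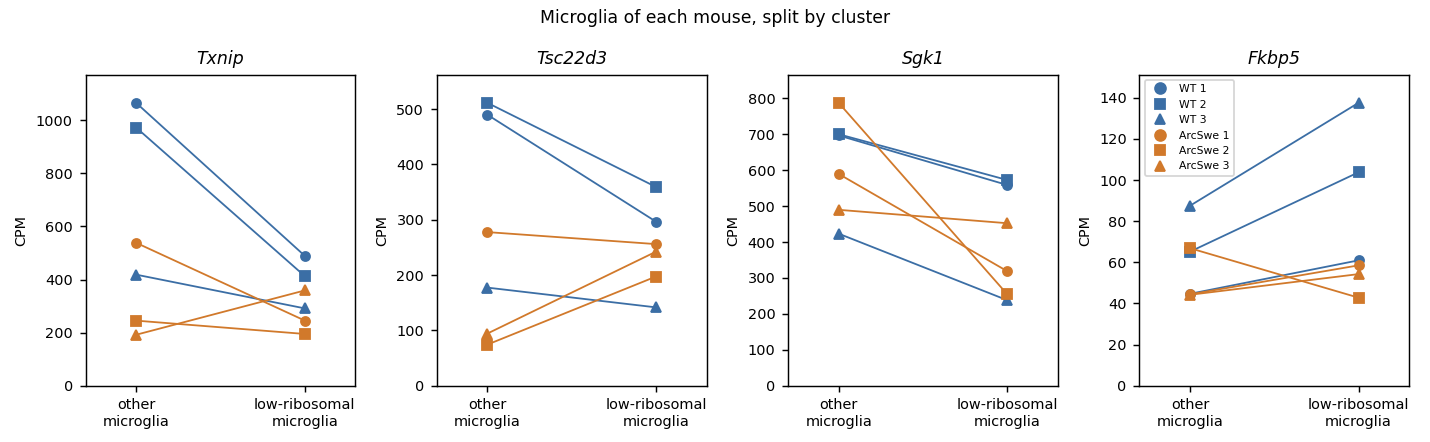
Level of Txnip, Tsc22d3, Sgk1 and Fkbp5 in CPM in microglia of the low-ribosomal clusters and in the other microglia, with a line joining the 2 values of each mouse (blue WT, orange ArcSwe). Txnip and Tsc22d3 stand highest in the other microglia of WT replicates 1 and 2, and WT replicate 3 lies among or below the ArcSwe mice for both genes.

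Zbtb16 was at 5.61, 6.63 and 3.26 CPM in WT and 9.98, 7.21 and 12.2 CPM in ArcSwe microglia, on 4 to 48 UMIs per mouse, and the groups did not overlap (1.06 ± 0.39, unadjusted p = 0.0225, adjusted p = 0.396). Nr3c1, at 246, 246 and 297 CPM in WT and 179, 232 and 180.4 CPM in ArcSwe microglia, did not overlap either, with all 3 WT mice above the ArcSwe mice (-0.31 ± 0.19, adjusted p = 0.61). These were 2 of 9 members, beside 19.6% of all genes whose groups did not overlap in microglia. The endothelial markers in microglia, a measure of free endothelial RNA, had a median of 2.61, 2.56 and 5.12% of their endothelial level in the WT and 3.72, 2.43 and 11.3% in the ArcSwe mice. T and NK cells were the class highest in Zbtb16. Their 4 markers summed to 1.99 to 9.79 CPM in WT and 1.80 to 114 CPM in ArcSwe microglia. The part of RNA from either class in the Zbtb16 values was not tested. Fkbp5 (-0.57 ± 0.32, adjusted p = 0.57) and Mt2 (0.61 ± 0.48, adjusted p = 0.69) did not pass.

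The difference of the genotype effect between classes was tested itself. For mural against endothelial cells 0 of 10 members passed, beside 0% of all 13422 genes (214 at an unadjusted p under 0.05 by edgeR, 0 calls by DESeq2). For microglia against endothelial cells 0 of 10 passed, beside 0.410% of all genes (1849 at an unadjusted p under 0.05, 275 calls by DESeq2, no member among them), and the largest was Txnip (-1.10 ± 0.43, unadjusted p = 0.0239, adjusted p = 0.29), followed by Zbtb16 (1.00 ± 0.43, adjusted p = 0.334) among members with more than 3 microglial UMIs. Without WT replicate 3 the Txnip difference was -1.62 and passed (adjusted p = 0.0467). Scaling with the size factors of DESeq2 moved the median of all genes in this comparison from -0.07 to 0.05.

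Other targets of the receptor were counted as a list of 24 genes, among them Per1, Klf9, Dusp1, Nfkbia and Cebpd. In the genotype comparison 0 of the 21 tested in endothelial cells, 0 of 22 in mural cells and 0 of 18 in microglia passed, with medians of -0.02, 0.04 and -0.15. Between classes, 19 of 24 differed in mural over endothelial cells (12 higher and 7 lower), beside 64.6% of all genes, and 18 of 24 in microglia over endothelial cells (10 higher and 8 lower), beside 77.7%. Klf9, a transcription factor that glucocorticoids induce, was lower in microglia than in endothelial cells (-3.82 ± 0.17, adjusted p = 1.81e-11) and higher in mural cells (0.51 ± 0.14, adjusted p = 0.00578), whereas Sdc4, a cell-surface proteoglycan, was higher in both (2.05 ± 0.28 and 4.63 ± 0.28). In arterial and in venous cells, 14 and 15 of 21 differed from capillary cells, 12 of them higher in each case, beside 47.3% and 31.0% of all genes. The genes of receptor handling, a list of 12 with the chaperones Hsp90aa1, Hsp90ab1, Fkbp4, Stip1 and Ptges3, had 10 tested: 0 passed for genotype in endothelial cells, and 5 were lower in mural than in endothelial cells, Fkbp4 among them (-0.44 ± 0.14, adjusted p = 0.0117).

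The same 16 genes of the digestion response were counted between zones beside the members. All 16 were higher in venous than in capillary cells, beside 31.0% of all genes that differed, with a median of 0.50 against -0.01 for all genes, in the comparison in which Fkbp5, Mt1, Mt2, Nr3c1 and Zbtb16 were also higher and Errfi1, Tsc22d3 and Txnip lower. In arterial over capillary cells 10 of the 16 were higher and 1 lower, beside 47.3% of all genes that differed (median 0.31), the comparison in which Errfi1, Pdk4 and Zbtb16 were higher and Mt1, Mt2, Sgk1 and Tsc22d3 lower. The part of the digestion response in the zone values of the members was not tested.

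The clock genes, which glucocorticoids help to set each day, were also counted between the genotypes in endothelial cells. By edgeR 8 of 16 had an unadjusted p under 0.05, beside 598 of all 13479 genes, though 0 passed, beside 0% of all genes. The same count was 10 of 16 in arterial, 6 of 16 in capillary and 4 of 15 in venous cells. In mural cells it was 3 of 16 and in microglia 2 of 15. Dbp, a transcription factor of the clock output, was at 18.7, 16.1 and 14.9 CPM in the WT and 36.1, 43.4 and 25.6 CPM in the ArcSwe mice, with no overlap, beside 10.9% of all genes (1.09 ± 0.20, edgeR adjusted p = 0.99, DESeq2 adjusted p = 0.00121). Nr1d1, the clock repressor REV-ERB alpha, had an estimate of 1.01 ± 0.21 (edgeR adjusted p = 0.99, DESeq2 adjusted p = 0.00367). Per1, a clock gene that the receptor also induces, was at 39.9, 61.8 and 36.5 CPM (WT) and 48.2, 44.7 and 46.1 CPM (ArcSwe), which overlapped. Since the hour of sampling of each mouse is not given, genotype and hour cannot be told apart for these genes.

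The genes most like each member across 36 sums, of 6 classes in each of the 6 mice, were sought by Pearson's r of log2(CPM + 1). The search took 5850 genes with a mean of at least 50 CPM in at least 1 of these classes. This is a description, since the points of a mouse share a library and the points of a class share a cell type. Sgk1 was closest to Plaur (r = 0.96), Nr3c1 to Spns2 (0.95), Errfi1 to Itpk1 (0.94), Fkbp5 to Ptk2b (0.93) and Pdk4 to Cnn2 (0.92). Mt2 was closest to Serpinb6b (0.92) and Tfrc (0.91), the transferrin receptor, and Mt1 to Ppp2r5a (0.78), with Mt2 among its 3 closest genes (0.76). Tsc22d3 was closest to Ftl1 (0.91), Txnip to Otud1 (0.86) and Zbtb16 to Fzd4 (0.86). No other member had a member among its 3 closest genes. Pdk4, at most 17.6 CPM in smooth muscle cells, and Zbtb16, at most 47.0 CPM in venous cells, lay below the limit of the search. Neither could therefore be listed for another member.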

How the data were processed

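The authors deposited, per library, raw UMI counts per gene and droplet barcode (Cell Ranger 7.0.0 and mm10, per the labels and the study's methods, with mouse Clec7a and human NOTCH3 added to the reference). The counts are whole numbers and not normalized. Human APP is not described as part of that reference.

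From the counts, cells with 500 to 4500 genes and at most 10% mitochondrial UMIs were kept. No doublet caller was run. The upper gene limit and the removal of clusters with markers of several cell types stood in for one. Cells were clustered (2000 variable genes, 30 components, 20 neighbours, Leiden resolution 1) without the genes of the response lists, and clusters were named from fixed markers, at least 3 of them detected, with thresholds set after the clusters were seen. 1553 cells stayed unnamed and 807 endothelial cells got no zone, so shares may differ from those under the study's own annotation. Endothelial cells with a Cx3cr1 or Aif1 UMI were left out.

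Raw UMIs were summed per mouse and class, and sums of at least 20 cells were tested with edgeR 4.0.16 (filterByExpr, TMM, quasi-likelihood, Benjamini-Hochberg over all genes tested, threshold 0.05). Class and zone contrasts and interactions had mouse as a block, and genotype fits had genotype as the only term. 2849 genes were left out before testing as mitochondrial, ribosomal protein, Riken or pseudogene entries. DESeq2 1.42.0 was an alternative. CPM are UMIs of a gene per 1000000 UMIs of the sum, relations used log2(CPM + 1), and intervals are 95%. Tested sums held 145685 to 23041723 UMIs in the fits on all cells kept, and T and NK cell sums, not tested, as few as 99854. Fits without the low-ribosomal clusters left out ArcSwe replicate 2 (16 cells). All statements on low counts cover counting error only.

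The fits were tested on simulated data with 200 genes changed. For the genotype comparison they recovered 147 of 200 at a log2 change of 1 in endothelial cells (13300 genes), 117 in mural cells (10982 genes) and 0 in microglia (10812 genes), and 185, 183 and 173 at a change of 2. The zone fit recovered 196 at a change of 1 and the class fit 163. False calls in the genotype fits of endothelial cells, mural cells and microglia numbered 12, 10 and 0 at a change of 1. At a change of 2 they numbered 16, 14 and 20. At a change of 1 the zone fit made 14 and the class fit 6. Simulated counts were drawn independently around 1 level per gene, without deviations shared by the genes of a mouse. Recovery in the real mice can therefore differ from these numbers.

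All members were named in every comparison. From the other lists (other receptor targets, receptor handling, metal response, ChREBP and FoxO targets, clock, immediate early genes), genes were named by an adjusted p under 0.05 or the 3 largest genotype estimates in endothelial cells or microglia. Per1, Nfkbia, Cebpd, Dusp1 and Ptges3 are named as examples chosen after their values were seen. The members and lists were chosen with earlier results of these data known. Alternatives were the size factors of DESeq2, no filter on low counts, DESeq2, stricter cell limits, keeping cells with microglial UMIs, a replicate or mouse block or none, WT mice only, and leaving out each mouse. Fits without both replicates 3 and the class fit without the low-ribosomal clusters were added after the data were seen.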

Additional observations from a re-analysis of the deposited data

How the results depend on the processing

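Genotype estimates of single members were followed in endothelial cells and microglia, and for Txnip and Zbtb16 in the difference between these classes. They kept their direction and their side of the threshold in 240 of 265 alternative values. The genotype estimates of members in the zones, mural cells, pericytes and smooth muscle cells are not in this count. Class and zone differences kept both in 808 of 858. In both families the cause of the changes was not tested, except that no filter and fewer mice change the number of genes and samples by construction. Calls over all genes between WT and ArcSwe were sensitive to the setting, while no alternative that kept all 6 mice called a member. With DESeq2 they numbered 13 in endothelial, 15 in arterial, 12 in capillary and 1 in venous cells, 168 in microglia and 275 for microglia minus endothelial cells. With no filter on low counts they numbered 135 in arterial, 3 in capillary and 70 in venous cells, 17 in mural cells, 17 in pericytes, 26 in smooth muscle cells and 229 in microglia. RLE size factors gave 37 in microglia, and leaving out the low-ribosomal clusters, which also leaves out ArcSwe replicate 2, gave 183 there and 354 for the difference from endothelial cells. Without both replicates 3, chosen after the data were seen, they numbered 4 in endothelial, 3 in arterial, 19 in capillary and 6 in venous cells and 84 in microglia. Leaving out 1 mouse at a time gave 0 to 3 calls in arterial cells, 0 to 1 in pericytes, 2 to 296 in microglia (0 to 2 of them members, the highest counts without WT replicate 3) and 0 to 250 for microglia minus endothelial cells (0 to 1 members).

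Replicate numbers were not taken as pairs in the main fits. For replicates 1, 2 and 3, the correlations of same-numbered deviations were 0.084, 0.16 and 0.36 for endothelial sums, 0.076, 0.051 and 0.37 for mural sums, and 0.33, -0.093 and 0.12 for microglial sums. They were thus highest for replicate 3 in endothelial and mural sums and for replicate 1 in microglial sums. With replicate number as a block, calls numbered 9 in arterial and 2 in venous cells and 35 in microglia, and endothelial Mt1 went from 0.0088 to -0.0047. Without mouse as a block, arterial over capillary calls numbered 3285 (2 members) and venous over capillary calls 1757 (4 members). With WT mice only they numbered 3679 and 2242 (5 members in the latter).

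None of the reversed estimates had passed its threshold, and the largest before reversal was -0.51, for endothelial Fkbp5. Endothelial Mt1 was -0.0081 with cells holding Cx3cr1 or Aif1 kept. Microglial Mt1 was 0.022 with stricter cell limits and 0.22 without the low-ribosomal clusters, where Sgk1 was 0.045. In mural over endothelial cells Mt1 was -0.15 with no filter and -0.22 in WT mice only, where Fkbp5 was -0.064, and venous over capillary Sgk1 was -0.053 in WT mice only. Leaving out 1 mouse, or both replicates 3, gave endothelial genotype ranges of -0.032 to 0.013 for Txnip, -0.027 to 0.10 for Errfi1, -0.055 to 0.35 for Mt2, -0.18 to 0.16 for Mt1, -0.63 to 0.022 for Zbtb16, -0.50 to 0.17 for Sgk1, -0.84 to 0.022 for Fkbp5, -0.034 to 0.049 for Nr3c1 and -0.32 to 0.041 for Tsc22d3. In microglia the ranges were -0.56 to 0.22 for Mt1 and -0.56 to 0.034 for Sgk1. They were -0.066 to 0.28 for mural over endothelial Mt1 and -0.027 to 0.013 for arterial over capillary Txnip. Low counts limit Pdk4 in microglia and Fkbp5 in pericytes.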

Other observations

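Txnip and Pdk4 also answer to fuel supply through the factors ChREBP and FoxO, and 12 other targets or parts of those factors were counted beside them. In arterial over capillary cells 7 of the 10 tested differed, all 7 lower, beside 47.3% of all genes, with a median of -0.40 on the log2 scale against -0.02 for all genes, the p53 and FoxO target Sesn1 among them (-0.72, edgeR adjusted p = 3.28e-12) and Angptl4, an inhibitor of lipoprotein lipase (-0.80, edgeR adjusted p = 0.00159). In the same comparison Pdk4 was higher and Txnip did not pass. In microglia over endothelial cells 12 of 12 differed, 6 in each direction, beside 77.7% of all genes. Between WT and ArcSwe 0 of 12 passed in endothelial cells and 0 of 11 in microglia. Angptl4 had an endothelial estimate of 0.62 with an unadjusted p of 0.0202 by edgeR.

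Of the metal handling list, 0 of 5 genes passed for genotype in endothelial cells and 0 of 4 in microglia. The zinc exporter Slc30a1 was lower in mural cells (-2.99, edgeR adjusted p = 4.68e-10) and in microglia (-3.61, edgeR adjusted p = 9.91e-11) than in endothelial cells, as Mt2 was. Hmox1, which degrades heme, was higher in microglia (2.92, edgeR adjusted p = 1.29e-09).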
